A study of Mus musculus with 7 samples.

Results

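The genes described here encode 10 neuropeptides of the hippocampus: Penk (proenkephalin), Pdyn (prodynorphin), Npy (neuropeptide Y), Sst (somatostatin), Cck (cholecystokinin), Tac1 and Tac2 (the tachykinin precursors), Vip (vasoactive intestinal peptide), Crh (corticotropin-releasing hormone) and Nts (neurotensin). They were chosen by name from 21887 protein-coding genes, and every Fos peak within 50 kb of their spans was collected from the 6 deposited lists, whatever its strength. The peaks come from chromatin immunoprecipitation and sequencing with an anti-Fos antibody on hippocampus of wild-type C57BL/6J mice aged 2 months. Of the mice, 1 group had received saline, with 3 libraries, and the other kainic acid, a glutamate receptor agonist that provokes seizures, with 3 libraries. Kainic acid was given intraperitoneally at 10 mg/kg, 2 times with 30 min between, and tissue was taken 1 hour after the first injection from animals whose seizures reached level 4. The single input library, chromatin of saline mice without antibody, is not analysed here as a peak list. Nothing in the labels gives the number of animals per library or says that libraries came from separate animals, so the spread between libraries may be technical.

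Neuropeptides are cut from larger precursor proteins, stored in dense-core vesicles and released when neurons fire strongly, after which they act on G protein-coupled receptors. Fos joins a Jun protein to form AP-1, which binds the AP-1 site and, with some partners, cAMP response elements. Enkephalin, dynorphin, somatostatin and neuropeptide Y genes are textbook examples of peptide genes whose transcription responds to neuronal activity or cAMP. In the hippocampus, dynorphin and enkephalin are made in dentate granule cells and their mossy fibres, while somatostatin, neuropeptide Y, cholecystokinin and vasoactive intestinal peptide mark classes of inhibitory interneurons.

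The kainic acid lists held 15009, 63197 and 29650 peaks in replicates 1, 2 and 3, and the saline lists 7, 3277 and 2. The number of peaks a list could place near any gene therefore differed widely between libraries, and this applies to every count below. A region is a set of peaks that overlap by at least 1 bp across the lists, and a replicated region is one called in 2 or more of the 3 kainic acid libraries. The fold is the authors' value of a peak over background, given for 1 library at a time. It is used here only through its rank in its own list, given also as a percentile where 0 is the highest fold. The lists carry no read totals, so the depth behind a peak is unknown, and a peak missing from a list was not called there, which does not show that Fos was absent. The lists carry no transcript levels either, so the tissue label could not be set against marker genes. In bulk chromatin, binding in few cells and weak binding in many cannot be told apart.

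Replicated Fos regions after kainic acid lay within 50 kb of 5 of these genes. Within 50 kb there were 7 replicated regions, at Sst (2), Cck (2), Penk, Pdyn and Tac2 (1 each), and 0 at Npy, Tac1, Vip, Crh and Nts. Of the 10 genes, only Sst had a replicated region within 10 kb. The 9 genes with none within 10 kb were Penk, Pdyn, Npy, Cck, Tac1, Tac2, Vip, Crh and Nts. Counting peaks of any single list, Tac2, Vip, Crh and Nts still had none within 10 kb, and Vip and Nts had none within 50 kb.

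For comparison, 40.0% of all protein-coding genes had a replicated region within 10 kb and 62.7% within 50 kb. The members are short, from 1770 to 13390 bp, and a short gene spans less sequence. Among the 9473 protein-coding genes no longer than 13390 bp the shares were 23.8% and 50.6%. The members' 1 of 10 within 10 kb was below both shares, and their 5 of 10 within 50 kb was close to that of short genes. Replicated regions within 50 kb averaged 0.7 per member (median 0.5). The mean was 1.21 per short gene (median 1) and 2.03 per gene over all protein-coding genes (median 1). Regions in all 3 kainic acid lists lay within 50 kb of 1 member, Cck, against 42.5% of all genes and 31.6% of short ones. No member had such a region within 10 kb, where 23.9% of all genes and 11.3% of short ones did. With a peak of any kainic acid list, 6 of 10 members were reached within 10 kb, against 61.2% of all genes and 43.7% of short ones. Within 50 kb it was 8 of 10, against 78.0% and 66.2%. These counts include the replicated regions. These shares are descriptions of a list of 10 genes and were not tested.

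**Figure D1:**
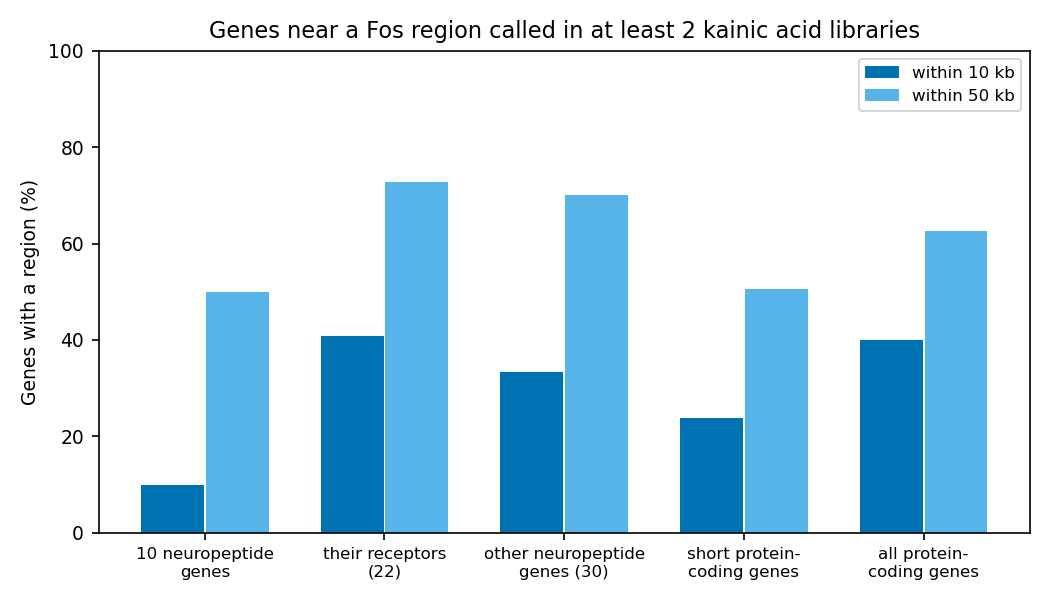
Share of genes (%, vertical axis from 0) with a region called in at least 2 kainic acid lists, within 10 kb (dark bars) and within 50 kb (light bars), for 5 gene groups on the horizontal axis. The members stand at 10% within 10 kb, below the 23.8% of short protein-coding genes, and at 50% within 50 kb, next to their 50.6%.

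Library by library, kainic acid replicate 1 had a peak within 50 kb of 4 members (Penk, Pdyn, Sst and Cck), against 46.5% of all protein-coding genes. Replicate 2 had one near 8 members, all but Vip and Nts, against 77.4%. Replicate 3 had one near 4 members (Penk, Sst, Cck and Tac2), against 63.4%. Saline replicate 2 had one near Cck only, against 30.2%, saline replicate 1 near none, against 0.0320%, and saline replicate 3 near no gene at all. Within 10 kb, replicates 1 and 3 each reached Sst only, against 26.5% and 41.0% of all genes. Replicate 2 reached 6 members, against 60.3%. Saline replicate 2 reached none, against 17.0%, and saline replicate 1 none, against 0.0183%. The members' share within 10 kb was thus below that of all genes in kainic acid replicates 1 and 3 and close to it in replicate 2. Shares of short genes were not counted per library, so these comparisons do not allow for gene length and were not tested.

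As numbers of peaks, the members' loci held 4, 23 and 5 peaks within 50 kb in kainic acid replicates 1, 2 and 3. In saline replicates 1, 2 and 3 they held 0, 1 and 0. Kainic acid libraries averaged 10.7 ± 10.7 peaks (SD, n = 3) and saline libraries 0.333 ± 0.577 (SD, n = 3). The difference of 10.3 peaks did not exceed the SD of the kainic acid group. Most of it came from kainic acid replicate 2, the longest list, and without that library the difference was 4.17. Of the 24 regions with a kainic acid peak at these loci, 17 were in 1 list only, and all 17 were peaks of replicate 2. Across the genome 59.7% of kainic acid regions were in 1 list, and 89.0% of those were peaks of replicate 2.

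Every kainic acid library had more peaks than every saline library at 2 loci, Penk and Sst. This separation held for 33.5% of all protein-coding genes. For Penk, the kainic acid libraries had 1, 1 and 1 peaks and the saline libraries 0, 0 and 0. For Sst, the values were 1, 3 and 1 against 0, 0 and 0. At neither locus did all kainic acid libraries share a site. The Penk peak of replicate 2 lay 0.12 kb from the gene, and those of replicates 1 and 3 lay 42.7 and 42.6 kb away. The Sst peak of replicate 1 was downstream of the gene and that of replicate 3 upstream. The two-sided exact permutation test over 20 assignments gave p = 0.1 for both, the smallest value that 3 libraries against 3 allow, so no locus could pass 0.05. At Cck, with 1, 7 and 2 peaks against 0, 1 and 0, the groups met at 1 peak and the exact permutation p was 0.2. For the other 7 genes the exact permutation p was 0.4 or 1.

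**Figure D2:**
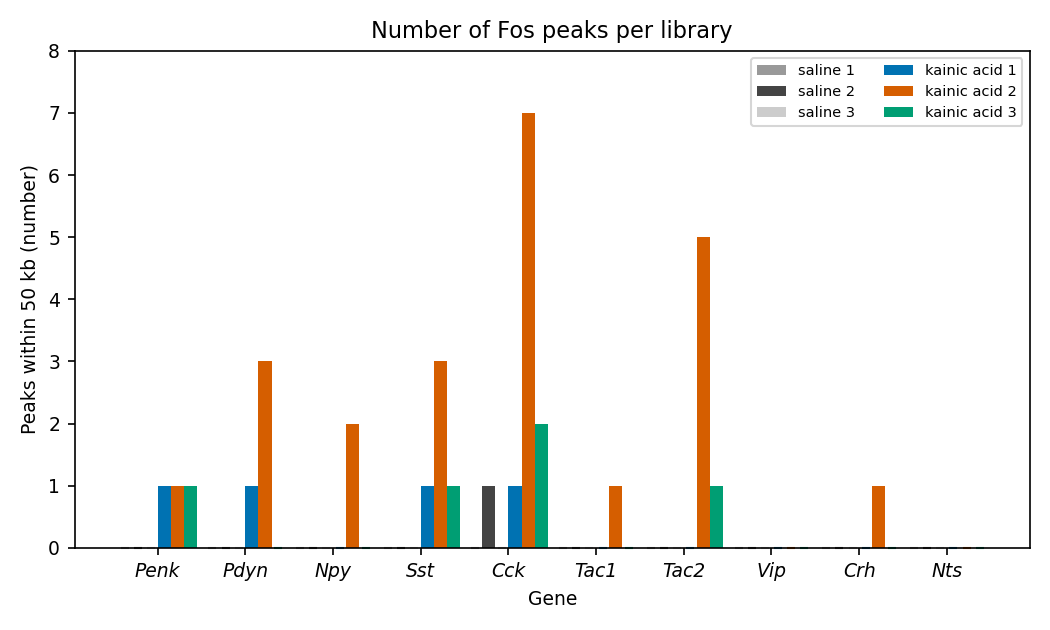
Number of Fos peaks within 50 kb of each gene (vertical axis, linear from 0), with 1 bar per library in the order saline 1 to 3 and kainic acid 1 to 3, and an absent bar for 0 peaks. Kainic acid replicate 2 has the highest bar at 7 of the genes with peaks, reaching 7 at Cck, and ties with the other kainic acid libraries at Penk.

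Sst, on chromosome 16 (23889573 to 23891342), had the replicated region of best mean rank by fold. Its product, somatostatin, is an inhibitory peptide of dendrite-targeting interneurons. One replicated region lay 8.39 kb upstream, at 23899732 to 23900520 (mm10). There the fold was 9.04 in kainic acid replicate 2 (rank 4656 of 63197) and 4.73 in replicate 3 (rank 9068 of 29650), with no peak in replicate 1. Its mean percentile was 19.0 ± 16.4 (SD, n = 2), the lowest, and so the best mean rank, of the 7 replicated regions. The means rest on different pairs of lists, and the order was not the same in each. In replicate 2 this region was first of the members' peaks, at 7.37, while in replicate 3 it was at 30.6, behind those of Tac2 (28.1) and Cck (29.3). By −log10 q the means were 20.1 for this region and 21.2 for that of Tac2. The other lay 4.28 kb downstream, at 23884924 to 23885294, with a fold of 5.20 in replicate 1 (rank 4152 of 15009) and 5.60 in replicate 2 (rank 17677 of 63197). Its mean percentile was 27.8 by fold and 33.8 by −log10 q, and in replicate 2 it ranked behind the Pdyn region (28.0 against 26.2). Summits differed by 85 bp between libraries at the upstream region and by 25 bp at the downstream one. The regions thus rested on different pairs of libraries, with replicate 2 in both, and neither was in all 3 lists. A further peak of replicate 2 alone lay 6.62 kb upstream, at 23897964 to 23898424, with a fold of 3.01 (rank 58799).

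Cck, on chromosome 9 (121489824 to 121495694), encodes a peptide abundant in basket interneurons and some pyramidal cells. It had the only region in all 3 kainic acid lists, 13.9 kb downstream at 121474885 to 121475933. This region lies inside the neighbouring gene Trak1, which encodes an adaptor for mitochondrial transport. Its fold was 4.32 in replicate 1 (rank 7673 of 15009), 4.59 in replicate 2 (rank 28132 of 63197) and 4.77 in replicate 3 (rank 8682 of 29650). These are percentiles of 51.1, 44.5 and 29.3, with a mean of 41.6 ± 11.2 (SD, n = 3), so replicate 3 ranked the region higher than the other libraries did. Summits fell within 64 bp of each other. The second replicated region, 42.6 kb downstream at 121446586 to 121447250, also lay inside Trak1. It had a fold of 3.18 in replicate 2 (rank 57033) and 3.77 in replicate 3 (rank 16976), and its summits were 315 bp apart. The single saline peak of all 10 loci lay between these, at 121453630 to 121453831 inside Trak1. It belonged to saline replicate 2 (fold 4.31, rank 1336 of 3277) and overlapped no kainic acid peak.

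The opioid peptide genes had 1 replicated region each, both far from the gene. Penk lies on chromosome 4 (4133536 to 4138815), and its replicated region was 42.6 kb away on the side of higher coordinates, at 4181427 to 4181881. The fold was 3.35 in kainic acid replicate 1 (rank 13253 of 15009) and 3.92 in replicate 3 (rank 15669 of 29650). This was the only replicated region of the set without a peak of the long replicate 2 list. Pdyn lies on chromosome 2 (129686549 to 129699938), and its region was 34.0 kb upstream, at 129733932 to 129734356. The fold was 4.08 in replicate 1 (rank 9081 of 15009) and 5.67 in replicate 2 (rank 16554 of 63197). For both genes the member itself was the nearest protein-coding gene. Mean percentiles were 70.6 ± 25.1 (SD, n = 2) at Penk and 43.3 ± 24.3 (SD, n = 2) at Pdyn. Both libraries with the Penk region thus ranked it below the middle of their lists.

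The tachykinin genes differed from each other in the peaks around them. Tac2, the neurokinin B precursor on chromosome 10 (127724478 to 127731768), had 5 peaks of kainic acid replicate 2 within 50 kb and none closer than 15.1 kb. Its replicated region was just inside the limit, 49.7 kb upstream at 127674341 to 127674800. There the fold was 5.52 in replicate 2 (rank 18114 of 63197) and 4.86 in replicate 3 (rank 8338 of 29650), at percentiles that agreed closely, 28.4 ± 0.384 (SD, n = 2). The nearest gene to it was Nemp1, 2265 bp away, not Tac2. Tac1, the substance P precursor on chromosome 6 (7555061 to 7562978), had a single peak, of replicate 2, at its start site.

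Of the 7 replicated regions, 4 had the member as the nearest protein-coding gene, namely those of Sst, Penk and Pdyn. None overlapped a member's span and none overlapped a saline peak. With only 7, 3277 and 2 saline peaks, most replicated regions of the genome could not overlap one either. The shares over all replicated regions were not counted for these overlaps. The median width of the 7 regions was 460 bp, against 686 bp over the 26862 replicated regions of the genome. Of the 7, 1 was in all 3 kainic acid lists (14.3%), against 44.4% of those 26862. For the genes with none inside the 50 kb limit, the nearest replicated regions lay 88.8 kb from Vip and 94.6 kb from Npy. They were 130.2 kb from Crh, 214.9 kb from Tac1 and 877.0 kb from Nts.

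**Figure D3:**
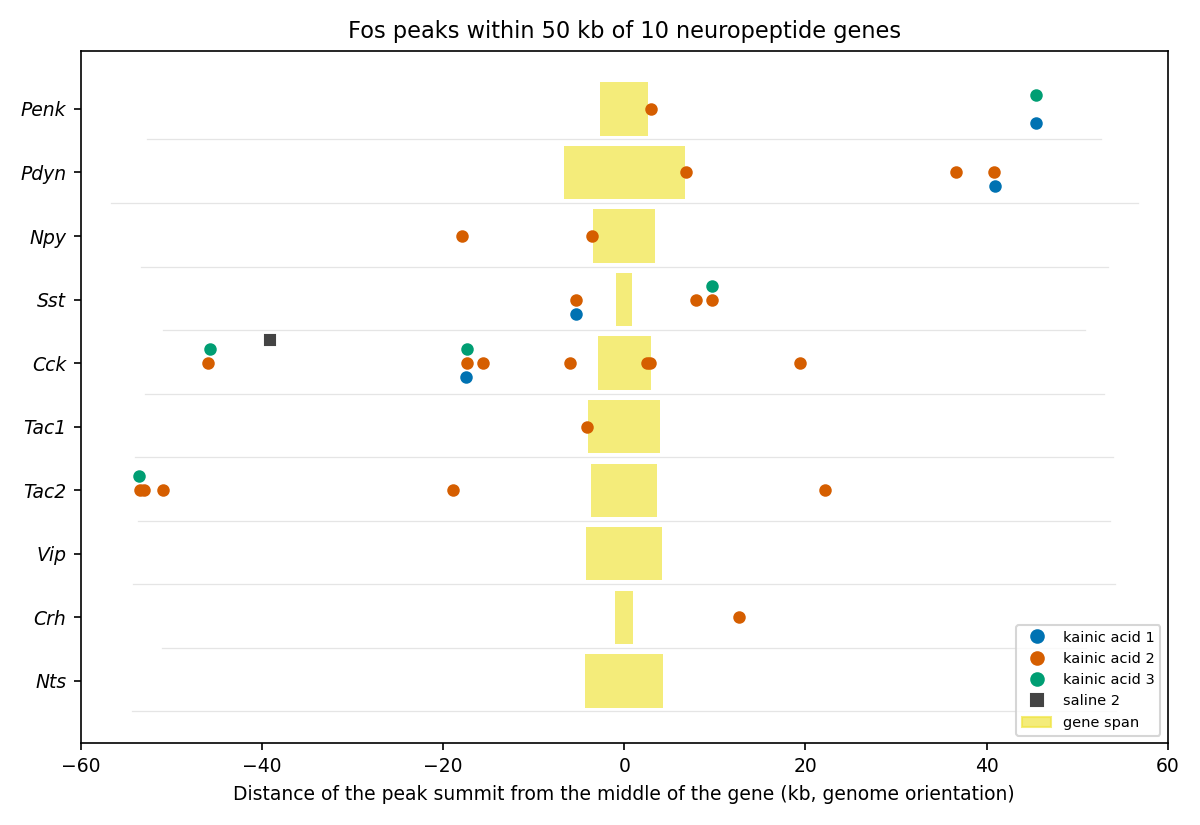
Positions of all Fos peaks within 50 kb of the 10 genes, as distance of the summit from the middle of the gene (kb, horizontal axis, genome orientation), with 1 row per gene, the gene span shaded, circles for kainic acid libraries and a square for saline. Circles of replicate 2 sit at or beside the edge of the span in Penk, Pdyn, Npy, Cck and Tac1 without circles of the other libraries, and the rows of Vip and Nts are empty.

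At the members' gene starts, peaks were called in kainic acid replicate 2 alone. RefSeq promoter windows of GRCm38.p6 (250 bases before to 50 after an annotated start) matched 8 of the 10 genes, all but Penk and Crh. A peak of replicate 2 overlapped the window of 4 of these 8 genes, Pdyn, Npy, Cck and Tac1. Over all protein-coding genes with a window, 13.6% had a peak of replicate 2 there, 1.34% one of replicate 1, 3.98% one of replicate 3 and 6.89% one of saline replicate 2. The summits were 99 bases before the start at Pdyn, 199 before it at Npy, 149 before it at Tac1 and 135 after it at Cck. Their folds were 4.59, 3.47, 3.51 and 2.75, with ranks 28132, 52611, 49911 and 61364 of 63197. Apart from the Pdyn peak, these were in the lower ranks of the list. Peaks of replicate 2 over any promoter window had a median percentile of 50.9. Peaks over a promoter window made up 1.52%, 3.87% and 2.37% of the lists of kainic acid replicates 1, 2 and 3. In the list of saline replicate 2 they made up 35.3%, so promoter calls also occurred in that saline list. The lists of saline replicates 1 and 3, with 7 and 2 peaks, had none. No saline peak overlapped a member's window. Penk had a peak of replicate 2 as well, at 4138935 to 4139289, which begins 120 bp beyond the higher-coordinate end of its span (fold 3.52, rank 49421). Cck had a second peak of replicate 2 inside the gene, at 121495069 to 121495371 (fold 4.89, rank 23697), and another 2.88 kb downstream (fold 3.51, rank 49911). No other library had a peak within 10 kb of these 5 genes.

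The 4 promoters with a replicate 2 peak are shown because they are the members' only promoter windows with a Fos peak in any list. They are given as the 250 bases before the start from RefSeq, 5′ to 3′ on the gene's strand (GRCm38.p6). Capitals mark matches to 3 motifs searched on both strands: TGANTCA (the AP-1 site), TGACGTCA (the full cAMP response element) and TGCGTCA (the variant element known from the proenkephalin promoter).
Pdyn, chr2:129699939-129700188, minus strand: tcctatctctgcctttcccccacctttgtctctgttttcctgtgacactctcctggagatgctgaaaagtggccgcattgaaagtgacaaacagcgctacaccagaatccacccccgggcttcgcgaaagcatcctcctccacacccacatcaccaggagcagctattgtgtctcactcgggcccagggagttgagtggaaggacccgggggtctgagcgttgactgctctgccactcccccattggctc
Npy, chr6:49822460-49822709, plus strand: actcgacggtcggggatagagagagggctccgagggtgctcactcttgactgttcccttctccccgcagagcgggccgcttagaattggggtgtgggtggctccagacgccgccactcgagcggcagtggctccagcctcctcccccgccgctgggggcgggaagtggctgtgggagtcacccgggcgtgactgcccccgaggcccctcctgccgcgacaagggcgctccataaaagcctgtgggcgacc
Tac1, chr6:7554811-7555060, plus strand: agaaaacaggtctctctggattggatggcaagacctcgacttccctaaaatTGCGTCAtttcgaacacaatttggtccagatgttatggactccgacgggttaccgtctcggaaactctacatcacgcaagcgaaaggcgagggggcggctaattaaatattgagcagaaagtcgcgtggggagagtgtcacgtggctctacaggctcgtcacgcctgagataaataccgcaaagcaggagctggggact
Cck, chr9:121495695-121495944, minus strand: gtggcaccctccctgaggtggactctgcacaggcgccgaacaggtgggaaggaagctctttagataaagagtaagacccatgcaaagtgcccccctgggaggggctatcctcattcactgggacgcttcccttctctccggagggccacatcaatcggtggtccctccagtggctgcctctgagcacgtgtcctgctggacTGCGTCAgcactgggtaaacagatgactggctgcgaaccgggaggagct

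Among these promoters, Tac1 and Cck held TGCGTCA, beginning 199 and 49 bases before the start. Both matches lay inside the replicate 2 peak, 47 bp from its summit at Tac1 and 181 bp from it at Cck. Pdyn and Npy held none of the 3 motifs in the window. Of 21263 promoter windows of protein-coding genes, 2.57% held TGCGTCA, 2.23% held TGACGTCA and 6.99% held TGANTCA. The motifs do not overlap each other in the members' windows. A match is only a run of letters and does not show a bound site.

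A pair of members had a motif but no Fos peak over it, shown as 30 bases around the match.
Sst, chr16:23890874-23890903, minus strand: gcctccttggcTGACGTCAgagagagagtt
Nts, chr10:102490607-102490636, minus strand: aactctttctgTGAGTCAgaaatcctgagc

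The Sst window held the full cAMP response element, beginning 48 bases before a start that the table sets at 23890844, inside the gene span. The nearest Fos peaks in any list were the regions 4.28 and 8.39 kb from the gene and the single peak between them in distance. The Nts window held the only AP-1 match among the members' 9 windows, beginning 207 bases before the start. Nts (chromosome 10, 102481756 to 102490418), whose product neurotensin is a modulator of dopamine signalling, had no peak in any list within 50 kb. The nearest kainic acid peak to it was 63.7 kb away, in 1 list.

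The remaining interneuron and stress peptides had few peaks. Npy, on chromosome 6 (49822710 to 49829507), encodes an inhibitory peptide with anticonvulsant action. It had 2 peaks, both of kainic acid replicate 2, 1 at the promoter and 1 located 14.3 kb upstream at 49808084 to 49808417 (fold 4.86, rank 24192). Crh, on chromosome 3 (19693401 to 19695396), the hypothalamic stress hormone that hippocampal interneurons also make, had 1 peak of replicate 2, 11.5 kb away at 19706945 to 19707162 (fold 3.49, rank 51333). Vip, on chromosome 10 (5639193 to 5647617), encodes the peptide of interneurons that inhibit other interneurons. Its nearest kainic acid peak was 85.5 kb away.

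**Figure D4:**
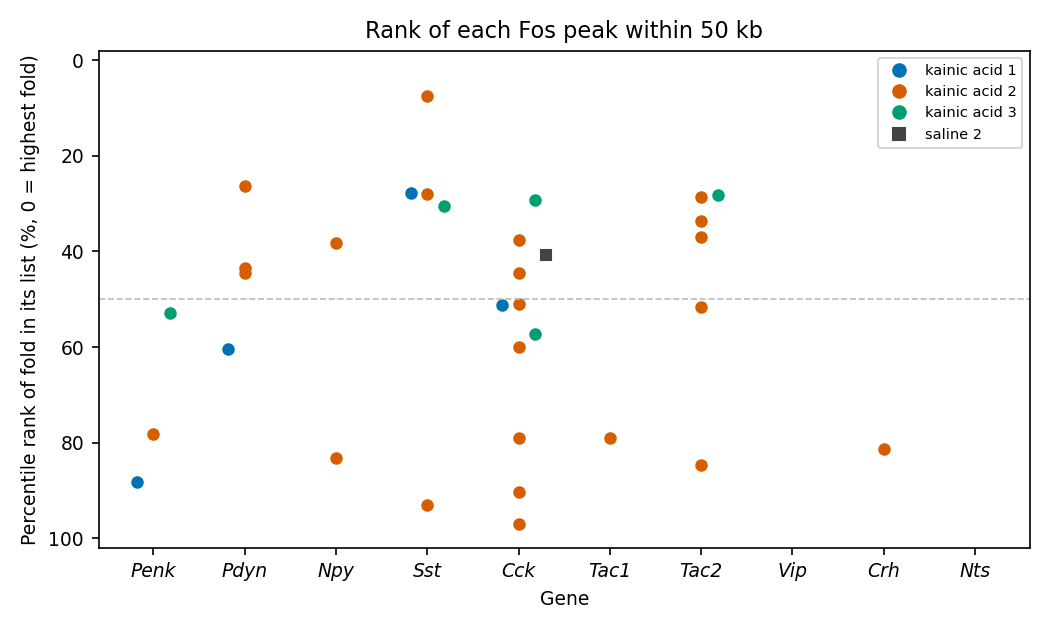
Percentile rank of the fold of each peak within 50 kb in its own list (vertical axis in %, 0 at the top is the highest fold, dashed line at 50), by gene, coloured by library. The highest point is the upstream Sst peak of kainic acid replicate 2 at 7.37, and the Penk, Tac1 and Crh points all lie below the dashed line.

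The receptors of these peptides and 30 other neuropeptide genes were read in the same way. Of 22 receptor genes, 9 (40.9%) had a replicated region within 10 kb and 16 (72.7%) within 50 kb, near the shares of all genes. In order of best mean percentile they were led by Sstr3 (13.0), Sstr4 (13.5), Vipr1 (23.0), Sstr2 (29.6), Oprm1 (30.6), Crhr2 (41.8), Npy2r (42.3) and Crhr1 (47.2). They included 3 of the 5 somatostatin receptor genes. The 13 receptor genes with no replicated region within 10 kb included all those of the tachykinins and of cholecystokinin. Single receptor families were not tested. The Sstr3 region, inside the gene on chromosome 15 (78540773 to 78542217), was in all 3 kainic acid lists with a fold of 4.84, 14.6 and 9.05 in replicates 1, 2 and 3, and a saline peak overlapped it too. Oprm1, the mu opioid receptor bound by enkephalin, had 4 replicated regions within 10 kb, 3 of them in all 3 lists, but it spans 279617 bp.

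Of the 30 other neuropeptide genes, 10 (33.3%) had a replicated region within 10 kb and 21 (70.0%) within 50 kb. The shares of all protein-coding genes were 40.0% and 62.7%, and those of short ones 23.8% and 50.6%. Gal, the galanin gene, had the best ranked of these, 4.61 kb away on chromosome 19 (3419152 to 3419838). It was in all 3 kainic acid lists with a fold of 6.24, 14.3 and 8.74 and a mean percentile of 6.09, ahead of every region of the 10 members. Qrfp followed at 12.4, then Oxt and Avp at 13.2, which share 1 region between them, Hcrt at 24.1, Cartpt at 28.2, Ucn2 at 28.8 and Ucn3 at 52.4. Regions in all 3 lists within 10 kb were found at 3 of the 30 genes and at 6 of the 22 receptors, against none of the 10 members. The shares were 23.9% over all protein-coding genes and 11.3% over short ones. Gene lengths differed too, with medians of 4368.5 bp for the 30 genes, 12952.5 bp for the receptors and 7044.5 bp for the members. The differences between these lists were not tested.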

How the data were processed

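Fos ChIP-seq peak lists of 3 saline and 3 kainic acid libraries were used, 1 list per library. Per the submitters' processing notes, Trim Galore 0.6.4, Bowtie2 2.3.4.3, MACS2, deepTools 3.5.0 and the build mm10 were used, and per the file contents alignments were filtered at a mapping quality of 30. The MACS2 cutoff and control are not given in the sources used here. The deposited fold (column 7) is a linear enrichment over background, given per library. Whether the input library supplied that background is not stated. The deposited −log10 p and −log10 q are also per library, and the authors' score is 10 times the latter, rounded down. The values are not scaled between libraries, so folds were ranked within lists only.

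Peaks were merged with Python 3.11.15 and pandas 2.3.3 at an overlap of 1 bp and assigned to gene spans of RefSeq GRCm38.p6 by edge-to-edge distance. Strands came from the RefSeq promoter table. Merging and counting were checked on simulated lists. Loci were compared with a two-sided exact permutation test. The members, the other lists and the settings were chosen with earlier results of these data known. All 10 members are named, with all replicated regions within 50 kb. From the receptor and other neuropeptide lists, genes with a replicated region within 10 kb are named, at most the 8 of best mean percentile. Peaks of single lists are named within 10 kb. The overlap with promoter windows and the single peaks of Npy, Crh and saline replicate 2 beyond 10 kb were chosen after their values were seen. Alternatives varied the −log10 q (5 or 10), the number of lists, the length of the kainic acid lists, overlap, reach, summit distance and each library.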

Additional observations from a re-analysis of the deposited data

How the results depend on the processing

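The number of replicated regions within 50 kb, 7 in the report, was 4 at a −log10 q from 5 and 1 from 10. It was 1 in all 3 kainic acid lists, 24 in any list, 3 with equal numbers of kainic acid peaks, 2 within 10 kb and 24 within 100 kb. With a kainic acid replicate left out it ran from 2 to 4, and it was 2 without replicate 2, where fewer lists allow fewer pairs. An overlap of 50% and summit distances gave 7 again. The number of genes with a replicated region within 10 kb, 1 in the report, was 0 at a −log10 q from 10, 0 in all 3 lists, 6 in any list, 2 within 20 kb, 5 within 50 kb and 7 within 100 kb, and 0 to 1 with one kainic acid library left out (0 without replicate 2). The difference in peaks per library, 10.3 in the report, was 6 at a −log10 q from 5, 1.33 from 10, 4 within 10 kb and 33 within 100 kb. It was above 0 in each alternative run, but none of these made the kainic acid and saline lists equally long. The kainic acid lists held 15009, 63197 and 29650 peaks and the saline lists 7, 3277 and 2. The sign of the difference therefore says nothing about stability. Ranked by −log10 q, the best region of Tac2 moved from 28.4 to 21.2, next to that of Sst (19.0 to 20.1).

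Both groups carry the replicate numbers 1 to 3, which no label ties to a shared day, litter or animal. With the replicate block the difference stayed 10.3 peaks, and the exact sign-flip permutation test gave p = 0.25 at Penk and Sst, the smallest that 3 pairs allow. In 2 saline libraries no member had a peak, so deviations could not show whether numbers pair the libraries. Neither test could pass 0.05 at this size, so these p-values say nothing about stability. Depth is unknown, and a region of 1 list may be below the threshold of the others.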
